A study of Mus musculus with 17 samples.

Results

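Adipokines are signalling proteins that adipose tissue releases into the blood. The 8 genes described here encode leptin (Lep), adiponectin (Adipoq), resistin (Retn), retinol-binding protein 4 (Rbp4), nicotinamide phosphoribosyltransferase (Nampt, also called visfatin), apelin (Apln), omentin (Itln1) and chemerin (Rarres2). They were taken by gene symbol, out of the 22491 symbols on the array, and they are covered by 11 probes: 3 for Rarres2, 2 for Nampt and 1 for each other gene. No threshold on measured values chose them, but earlier results of these data were known when they were chosen. Of the 17166 genes detected well enough to be tested, 6 were adipokines, and Apln and Itln1 were not among them.

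Total RNA of mouse epididymal adipose tissue, the fat pad beside the epididymis, was measured on 17 Illumina bead arrays. All mice were WBB6F1, a cross of WB and C57Bl/6, and had 1 of 3 genotypes: wild-type Cpa3+/+, Cpa3Cre/+ with Cre inserted at the mast cell protease gene Cpa3, or KitW/Wv with 2 mutant alleles of the receptor gene Kit. They were fed for 12 weeks, on chow with 6% fat (LFD, low-fat diet) or on a diet in which fat supplied 60% of the energy (HFD, high-fat diet), and were fasted for 5 h before the tissue was taken. Each LFD group had 3 samples, as did Cpa3Cre/+ and KitW/Wv on HFD, and Cpa3+/+ on HFD had 2. Cpa3Cre/+ mice lose mast cells and also carry Cre and a changed Cpa3 allele, while KitW/Wv mice lack mast cells and have defects in other Kit-dependent cells. The 2 models therefore differ from the wild type by more than mast cells. Whether the numbered samples came from different animals is not stated in the labels, and the spread that the p-values rest on may therefore be technical.

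Leptin is made by adipocytes, and its plasma level follows fat mass. It acts on the brain to lower food intake. Adiponectin is also made by adipocytes and improves insulin sensitivity through the receptors AdipoR1 and AdipoR2. Its plasma level falls in obesity. Resistin is made by adipocytes in mice, and in humans mainly by macrophages. Chemerin attracts immune cells through the receptor CMKLR1, and apelin acts on the receptor encoded by Aplnr, which is found on vascular cells.

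The median deposited intensity lay between 98.6 and 107.4 per array, and 46.9% to 51.7% of the probes were detected. With 2 or 3 arrays per group, precision is limited by their number. As a check of the tissue label, 16 adipocyte markers were measured, and the lipid droplet genes Plin1 and Cidec and the fatty acid carrier gene Fabp4 were detected on all 17 arrays. Their list deviated from its average over all arrays by -0.31 to 0.24 on the log2 scale, without a break between diets or genotypes. The mean deviation of the 17 macrophage markers tested, of 18 listed, was above all 9 LFD arrays (-1.03 to -0.29) on every HFD array. It was 0.79 to 0.81 in Cpa3+/+, 1.09 to 1.24 in Cpa3Cre/+ and, closer to LFD, -0.11 to 0.18 in KitW/Wv. The 9 stromal progenitor markers were at 0.41 to 0.62 in Cpa3+/+, 0.30 to 0.74 in Cpa3Cre/+ and -0.65 to -0.03 in KitW/Wv on HFD. On LFD they were at -0.31 to -0.13, -0.27 to -0.09 and -0.25 to -0.02 in the same order. The monocyte and macrophage genes Cd68 and Adgre1 were detected on all 17 arrays. In bulk tissue, fewer cells of a type and less RNA per cell cannot be told apart. On Cpa3+/+ LFD array 3, markers of epididymis and testis stood apart at 4.17, and on Cpa3Cre/+ HFD array 3 they were at 0.89. Red blood cell markers ranged from -2.02 on Cpa3Cre/+ HFD array 2 to 2.02 on KitW/Wv HFD array 3. On the first HFD array of KitW/Wv, B cell markers stood apart at 2.35, T and NK cell markers at 1.44 and skeletal muscle markers at 1.44, and on Cpa3Cre/+ LFD array 2 skeletal muscle markers at 1.50 and mesothelial and epithelial markers at 1.00. The part of these cells and tissues in the adipokine values was not tested.

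All values below are log2 normalized intensities, on which undetected probes lie a little above 4. A level of 1 probe is not comparable with that of another, so only differences between arrays are compared. Fold changes come from 1 linear model over the 17 arrays and all 17166 genes (limma), with Benjamini-Hochberg adjustment over all genes and a threshold of 0.05. Lep covered the widest range, 2.77 on the log2 scale from 11.48 to 14.25. Retn covered 2.44, Rbp4 1.85, Nampt 1.32, Rarres2 0.74 and Adipoq 0.44. Apln lay between 4.10 and 4.57 and Itln1 between 4.13 and 4.62. Each was detected on 1 of 17 arrays, in both cases Cpa3+/+ LFD array 3, the array with the highest epididymis and testis markers. No comparison was made for these 2 genes.

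**Figure D1:**
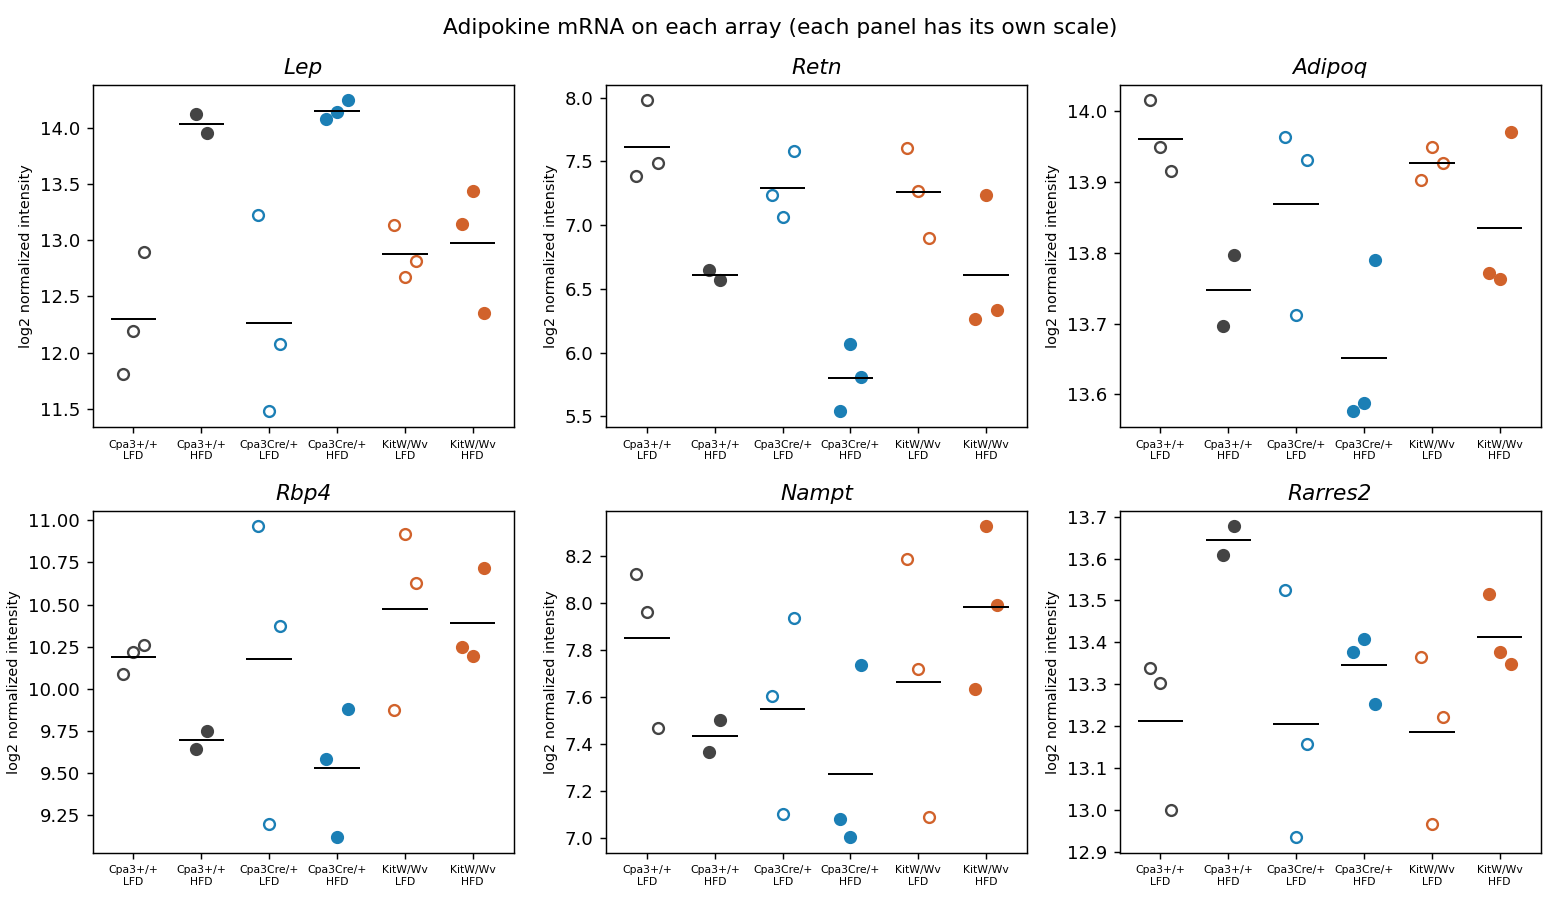
Log2 normalized intensity of the 6 tested adipokines on each of the 17 arrays, by genotype and diet. Open circles are LFD arrays, filled circles HFD arrays and bars group means; the vertical scale differs between panels and does not start at 0. Lep reached 13.96 to 14.25 on the 5 HFD arrays of Cpa3+/+ and Cpa3Cre/+ and 12.35 to 13.44 on the KitW/Wv HFD arrays.

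The Lep gene lies at chr6:29060221-29073876 in the mouse build GRCm38.p6. Promoter sequences, the 250 bases before the annotated start from RefSeq on GRCm38.p6, were found for 7 of the 8 genes. They are shown for the 2 adipokines that passed the threshold with diet, Lep and Retn, and for Adipoq, which did not. Capitals mark matches to motifs searched on both strands, here the C/EBP palindrome TTGCGCAA, which adipocyte C/EBP factors can bind, the GC box GGGCGG and the CCAAT box CCAAT, whose reverse is ATTGG. The Lep window, on the plus strand at chr6:29059971-29060220, holds 1 palindrome starting 55 bases before the start and 1 GC box at 98 bases. Of 32817 such windows, 0.165% hold the palindrome, 32.7% a GC box and 33.8% a CCAAT box.
Lep: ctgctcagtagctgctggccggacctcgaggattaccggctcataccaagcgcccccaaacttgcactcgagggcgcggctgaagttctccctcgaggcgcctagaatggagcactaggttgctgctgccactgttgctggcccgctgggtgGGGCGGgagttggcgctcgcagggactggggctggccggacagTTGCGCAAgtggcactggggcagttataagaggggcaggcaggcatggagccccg

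Lep, the leptin gene, was higher on HFD than on LFD in Cpa3+/+ and in Cpa3Cre/+, by more than 3-fold in each. In Cpa3+/+ its level was 11.81, 12.19 and 12.90 on the LFD arrays and 14.12 and 13.96 on the HFD arrays. In Cpa3Cre/+ it was 13.23, 11.48 and 12.08 on LFD against 14.08, 14.14 and 14.25 on HFD. In neither genotype did the 2 diets overlap, and the HFD arrays lay close together while the LFD arrays were spread out. The log2 fold change was 1.74 in Cpa3+/+ (3.34-fold, SE 0.43, 95% confidence interval 0.82 to 2.66, limma adjusted p = 0.0322). It was 1.89 in Cpa3Cre/+ (3.71-fold, SE 0.38, interval 1.07 to 2.72, adjusted p = 0.00587). Markers of other cells moved with these rises, and their part was not tested. Of 17 macrophage markers, 8 passed as higher on HFD in Cpa3+/+ and 15 in Cpa3Cre/+, and of 9 stromal progenitor markers 1 and 4 did. Of all genes, 3.44% and 5.88% passed as higher in the same order. Mesothelial and epithelial markers were at -0.08 to 0.45 on LFD and -0.65 to -0.59 on HFD in Cpa3+/+, with 0 of 11 past the threshold. Adipocyte markers were at 0.00 to 0.05 in Cpa3+/+ and -0.21 to -0.10 in Cpa3Cre/+ on HFD. These values lay inside the LFD ranges of -0.16 to 0.18 and -0.31 to 0.24.

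In KitW/Wv the 2 diets overlapped for Lep. Its level was 13.14, 12.68 and 12.81 on LFD and 13.14, 13.44 and 12.35 on HFD, all 3 HFD values below every HFD value of the other genotypes. The diet difference was 0.10 (SE 0.38, interval -0.72 to 0.93, limma adjusted p = 1). Against Cpa3Cre/+ on HFD, Lep in KitW/Wv had a difference of -1.18 (SE 0.38, interval -2.00 to -0.35, unadjusted p = 0.00829, limma adjusted p = 0.0797), and against Cpa3+/+ on HFD one of -1.06 (SE 0.43, adjusted p = 0.265). Neither passed the threshold. The interactions, which compare the diet effects themselves, also missed it: -1.64 for KitW/Wv against Cpa3+/+ (SE 0.58, interval -2.87 to -0.40, limma adjusted p = 0.259) and -1.79 against Cpa3Cre/+ (SE 0.54, interval -2.95 to -0.63, adjusted p = 0.117). On LFD, the Lep mean was 12.88 in KitW/Wv, 12.30 in Cpa3+/+ and 12.26 in Cpa3Cre/+. The KitW/Wv mean differed by 0.57 from that of Cpa3+/+ (SE 0.38, interval -0.25 to 1.40, limma adjusted p = 0.999) and by 0.61 from that of Cpa3Cre/+ (SE 0.38, interval -0.21 to 1.44, adjusted p = 1). Neither passed. In order of level, the HFD means of Cpa3Cre/+ (14.15) and Cpa3+/+ (14.04) came first and did not differ from each other beyond their spread. Those of KitW/Wv on HFD (12.98) and LFD followed.

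The call for Lep in Cpa3+/+ rested on few arrays, and it was also lost when a block for the sample numbers was added to the model. Leaving out LFD array 1, LFD array 2, HFD array 1 or HFD array 2 gave adjusted p-values of 0.111, 0.0772, 0.220 and 0.167, and fitting only the 2 groups compared gave 0.100. In Cpa3Cre/+ the call was lost in 1 setting, the fit of the 2 groups alone (adjusted p = 0.0546). Without LFD array 2, the array with the muscle and mesothelial markers and the lowest Lep, the difference was 1.50 (adjusted p = 0.0242). For the interaction against Cpa3Cre/+, leaving out Cpa3Cre/+ LFD array 1, the one with the highest Lep of its group, gave -2.27 and an adjusted p of 0.0145. It passed in only this 1 of 20 other settings. Leaving out single arrays moved it between -2.27 and -1.40, with adjusted p-values up to 0.271. The fit of the HFD groups of KitW/Wv and Cpa3Cre/+ alone gave 0.0425 for their difference, which passed in only this 1 of 14 other settings. Leaving out single arrays gave adjusted p-values of 0.0766 to 0.304 for it. On the HFD arrays of Cpa3+/+ and Cpa3Cre/+, Lep reached 75.1% to 91.2% of the brightest probe of its array. Whether intensities are compressed there was not tested.

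**Figure D2:**
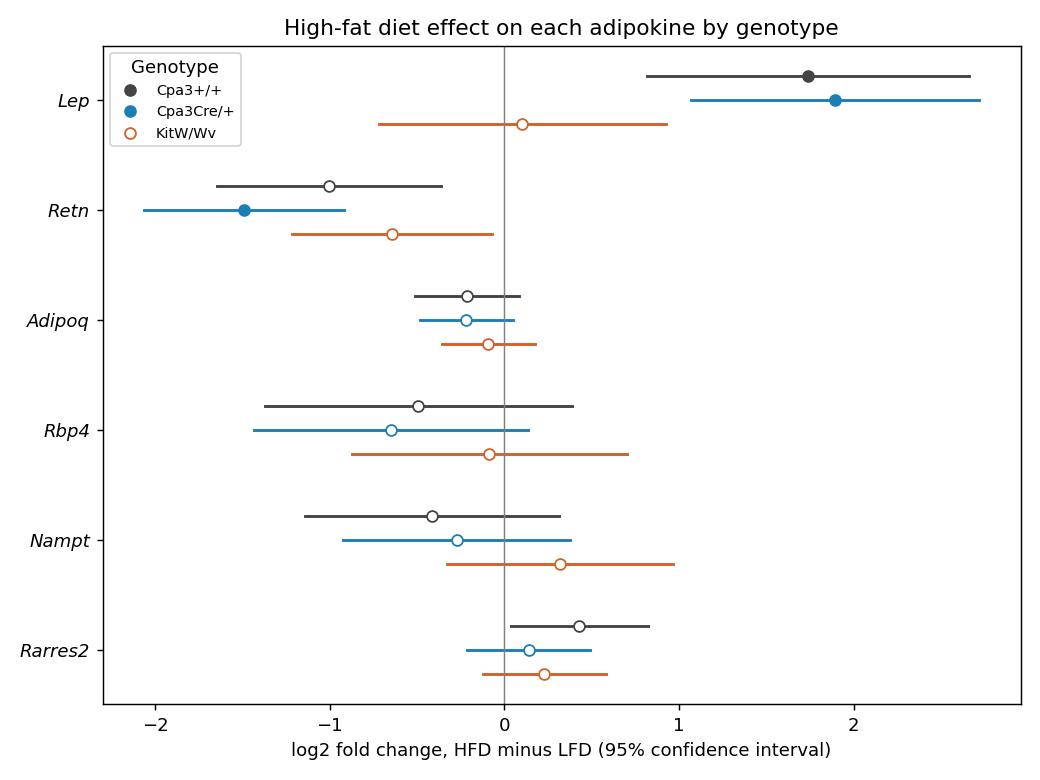
Log2 fold change of HFD against LFD for the 6 tested adipokines, 1 line per genotype, with 95% confidence intervals from the model. Filled points passed the threshold: Lep in Cpa3+/+ (1.74) and Cpa3Cre/+ (1.89) and Retn in Cpa3Cre/+ (-1.49). All 6 KitW/Wv points are open.

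Retn, the resistin gene, lies at chr8:3655770-3659818. Its 250 bases before the start, on the plus strand at chr8:3655520-3655769, hold none of the motifs named above.
Retn: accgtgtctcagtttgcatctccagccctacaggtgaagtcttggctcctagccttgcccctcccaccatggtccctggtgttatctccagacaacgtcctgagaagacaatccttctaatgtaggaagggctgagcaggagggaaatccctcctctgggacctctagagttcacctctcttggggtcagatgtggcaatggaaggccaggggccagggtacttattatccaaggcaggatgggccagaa

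Retn moved opposite to Lep on HFD in Cpa3Cre/+. There its level was 7.24, 7.06 and 7.58 on LFD and 5.54, 6.07 and 5.81 on HFD, so the 2 diets did not overlap. Its log2 fold change was -1.49, which is 2.81-fold lower (SE 0.27, interval -2.06 to -0.92, limma adjusted p = 0.00247). In Cpa3+/+ the level was 7.38, 7.98 and 7.49 on LFD and 6.65 and 6.57 on HFD, again without overlap. The difference there was -1.00 (SE 0.30, limma adjusted p = 0.0763) and did not pass. With the authors' normalized values it was -0.65 and passed (adjusted p = 0.0485). In KitW/Wv the level was 7.60, 7.27 and 6.90 on LFD and 6.27, 7.24 and 6.34 on HFD, with array 2 of the HFD group inside the LFD range. The difference was -0.64 (SE 0.27, interval -1.22 to -0.07, unadjusted p = 0.0302, limma adjusted p = 1).

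The call for Retn in Cpa3Cre/+ held in all 13 other settings tried that could change it, but its size depended on the background correction. The Retn probe was dim, at deposited intensities of 133 to 283. Without background correction the difference was -0.80 (limma adjusted p = 0.00582), and with the authors' normalized values -0.79 (adjusted p = 0.00497). Between genotypes on HFD, Retn had the lowest mean in Cpa3Cre/+ (5.81) and means of 6.61 in both other groups. Its differences were -0.81 for Cpa3Cre/+ against Cpa3+/+ (SE 0.30, limma adjusted p = 0.963) and 0.81 for KitW/Wv against Cpa3Cre/+ (SE 0.27, adjusted p = 0.0842). No genotype difference and no interaction of diet and genotype passed for Retn. The interaction of KitW/Wv and Cpa3Cre/+ came to 0.84 (SE 0.38, limma adjusted p = 0.354). With the fall of Retn in Cpa3Cre/+, 15 of 17 macrophage markers (median 1.61) and 4 of 9 stromal progenitor markers (median 0.27) passed as higher. Of all genes, 5.88% passed as higher there. The adipocyte list lay at -0.21 to -0.10 on HFD and -0.31 to 0.24 on LFD. The part of these markers was not tested.

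**Figure D3:**
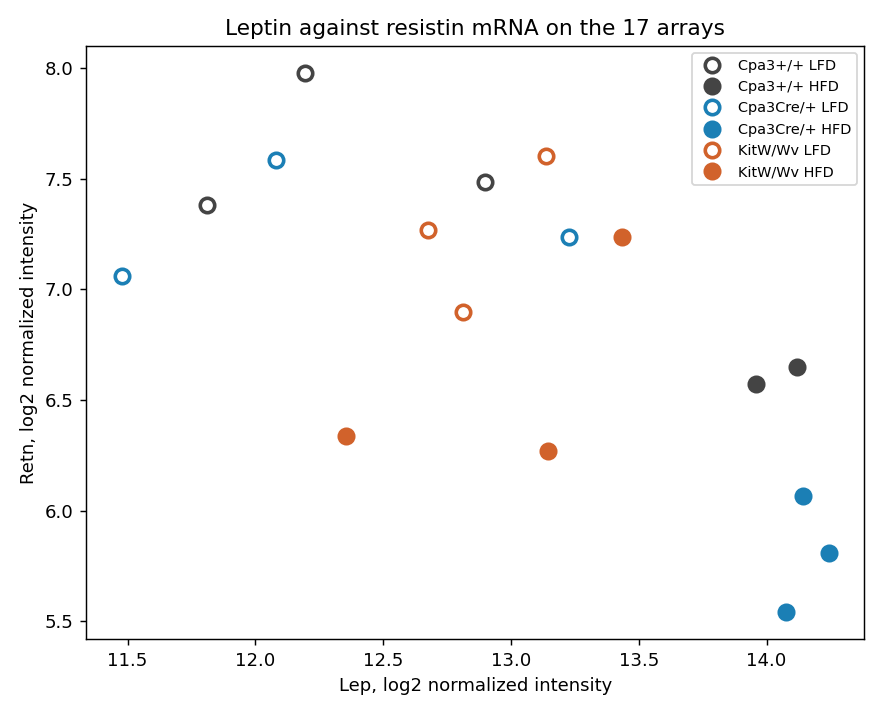
Retn against Lep on each of the 17 arrays, both as log2 normalized intensity, with open circles for LFD and filled circles for HFD. The 5 HFD arrays of Cpa3+/+ and Cpa3Cre/+ lie at the lower right. The KitW/Wv HFD arrays span Lep 12.35 to 13.44 and Retn 6.27 to 7.24. Of these, array 2 lies to the right of all LFD arrays, and arrays 1 and 3 lie below them.

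Adipoq, the adiponectin gene, lies at chr16:23146536-23157968. Its window, on the plus strand at chr16:23146286-23146535, holds 3 CCAAT boxes, 34, 27 and 7 bases before the start.
Adipoq: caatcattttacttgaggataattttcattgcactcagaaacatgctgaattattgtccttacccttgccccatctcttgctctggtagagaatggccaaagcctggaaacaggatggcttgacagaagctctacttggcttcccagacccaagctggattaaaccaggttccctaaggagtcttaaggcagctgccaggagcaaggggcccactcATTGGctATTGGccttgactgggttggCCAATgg

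Adipoq varied least of the 6 genes and passed the threshold in no comparison. Its level was 14.02, 13.95 and 13.92 in Cpa3+/+ on LFD and 13.70 and 13.80 on HFD. In Cpa3Cre/+ it was 13.96, 13.71 and 13.93 against 13.58, 13.59 and 13.79. In KitW/Wv it was 13.90, 13.95 and 13.93 against 13.77, 13.76 and 13.97. The diets did not overlap in Cpa3+/+ and overlapped in the other genotypes. The diet difference was -0.21 in Cpa3+/+ (SE 0.14, interval -0.51 to 0.08, limma adjusted p = 0.474), -0.22 in Cpa3Cre/+ (SE 0.12, interval -0.48 to 0.05, adjusted p = 0.356) and -0.09 in KitW/Wv (SE 0.12, interval -0.36 to 0.17, adjusted p = 1). Falls of more than 0.51 on the log2 scale lie outside all 3 intervals. The Adipoq probe reached 60.6% to 75.1% of the brightest probe of its array, and compression of its range was not tested.

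Rbp4 encodes the blood carrier of retinol. Its level in Cpa3+/+ was 10.09, 10.22 and 10.26 on LFD and 9.64 and 9.75 on HFD. The Cpa3Cre/+ arrays gave 10.97, 9.20 and 10.37 on LFD and 9.58, 9.12 and 9.88 on HFD, and the KitW/Wv arrays 9.87, 10.92 and 10.63 on LFD and 10.25, 10.20 and 10.72 on HFD. Within-group spread was large (pooled SD 0.49), and only the Cpa3+/+ diets did not overlap. The diet differences were -0.49, -0.65 and -0.09 in Cpa3+/+, Cpa3Cre/+ and KitW/Wv, with limma adjusted p-values of 0.604, 0.355 and 1. Without Cpa3Cre/+ LFD array 2, the array with the muscle and mesothelial markers, the difference in Cpa3Cre/+ was -1.14 and passed (adjusted p = 0.0323). It passed in only this 1 of 13 other settings. Leaving out single arrays moved it between -1.14 and -0.26, with adjusted p-values up to 0.768. On HFD all 3 KitW/Wv arrays were above every array of the other genotypes. The differences were 0.86 against Cpa3Cre/+ (SE 0.37, limma adjusted p = 0.192) and 0.69 against Cpa3+/+ (SE 0.41, adjusted p = 0.503).

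Nampt encodes the enzyme that makes nicotinamide mononucleotide, a precursor of NAD, and is also found outside cells. Its brighter probe read 8.12, 7.96 and 7.47 in Cpa3+/+ on LFD and 7.37 and 7.50 on HFD. It read 7.60, 7.10 and 7.93 against 7.08, 7.00 and 7.73 in Cpa3Cre/+, and 8.18, 7.72 and 7.09 against 7.63, 8.33 and 7.99 in KitW/Wv. The diets overlapped in all 3 genotypes. The differences were -0.42, -0.27 and 0.32, none past the threshold (lowest limma adjusted p = 0.591). The second Nampt probe had the same signs, -0.68, -0.15 and 0.09. On HFD, Nampt in KitW/Wv differed from Cpa3Cre/+ by 0.71 (SE 0.30, unadjusted p = 0.0345, limma adjusted p = 0.192). The second probe gave 0.21 for the same comparison (limma adjusted p = 0.655). Against Cpa3+/+ on HFD, the brighter probe gave 0.55 and the second 0.70 (limma adjusted p = 0.529 and 0.151), and neither passed.

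Rarres2 encodes chemerin, which is secreted as a precursor and activated by proteases. Its brightest probe read 13.34, 13.30 and 13.00 in Cpa3+/+ on LFD and 13.61 and 13.68 on HFD, without overlap. The arrays of Cpa3Cre/+ and KitW/Wv overlapped between diets, at 12.94 to 13.53 on LFD and 13.25 to 13.52 on HFD. The diet differences were 0.43 (SE 0.18), 0.14 (SE 0.16) and 0.23 (SE 0.16) in Cpa3+/+, Cpa3Cre/+ and KitW/Wv, with limma adjusted p-values of 0.241, 0.719 and 1. A second bright probe gave 0.45, 0.22 and 0.23. The third probe, near background at 4.94 to 6.26, had the opposite sign, -0.39, -0.50 and -0.34. No probe of Rarres2 passed.

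Counted over the 6 tested adipokines, 1 rose with HFD in Cpa3+/+, where 4.65% of all genes tested passed the threshold (3.44% higher and 1.21% lower). In Cpa3Cre/+ 1 rose and 1 fell, against 9.1% of all genes (5.88% higher and 3.22% lower), and in KitW/Wv none passed (limma; 1 of 6 at an unadjusted p below 0.05), against 0.00583%. Arrays of the 2 diets did not overlap for 2 higher and 3 lower adipokines in Cpa3+/+ (17.6% and 15.9% of all genes), for 1 and 1 in Cpa3Cre/+ (12.6% and 11.5%) and for none in KitW/Wv (5.24% and 4.65%). The median diet difference of the 6 genes was -0.31 in Cpa3+/+, -0.25 in Cpa3Cre/+ and 0.01 in KitW/Wv, and that of all genes was -0.02, -0.02 and 0.00. Under median scaling the 1010 higher and 552 lower genes of the diet in Cpa3Cre/+ became 1554 and 239. None of the 6 passed in any comparison of genotypes on the same diet. In KitW/Wv against Cpa3Cre/+ on HFD the same scaling turned 513 higher and 835 lower genes into 263 and 1338. The share of all genes that passed was 7.85% for KitW/Wv against Cpa3Cre/+ on HFD (2.99% higher and 4.86% lower), where 4 of the 6 had an unadjusted p below 0.05. On HFD, KitW/Wv against Cpa3+/+ gave 2.36% (0.594% higher and 1.77% lower), where 1 of the 6 did. It was 0.0408% for Cpa3Cre/+ against Cpa3+/+ on HFD (1 of 6 unadjusted). On LFD it was 0.035% for Cpa3Cre/+ against Cpa3+/+, 0.0466% for KitW/Wv against Cpa3+/+ and 0% for KitW/Wv against Cpa3Cre/+, with 0 of 6 unadjusted in each. None passed in an interaction. Of all genes, 0% did for Cpa3Cre/+ and Cpa3+/+ (0 of 6 unadjusted), 0.885% for KitW/Wv and Cpa3+/+ (0.0874% higher and 0.798% lower, 1 of 6 unadjusted) and 2.54% for KitW/Wv and Cpa3Cre/+ (0.449% higher and 2.09% lower, 2 of 6 unadjusted). These comparisons share arrays and are not independent.

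The adipokines did not vary as 1 block over the 17 arrays, which share the groups and the normalization, so the following correlations only describe these arrays. Adipoq and Rbp4 varied together, with r = 0.79 over all arrays and 0.75 over the deviations from the group means. Retn and Nampt had r = 0.51 and 0.62. Lep and Retn had r = -0.65 over all arrays but 0.31 within groups, so their opposition lay between the groups. The genes whose levels were most like Lep were the tetraspanin gene Tspan17 (r = 0.96, within groups 0.86), the intermediate filament gene Vim (0.94 and 0.80) and the glypican gene Gpc1 (0.93 and 0.73). Those most like Adipoq were Pgm1 (0.93 and 0.89) and Pgm2 (0.92 and 0.88), both named for phosphoglucomutases, and Rab34 (0.90 and 0.78). Those most like Retn were the complexin gene Cplx1 (0.95 and 0.83), the parathymosin gene Ptms (0.94 and 0.78) and Mnd1 (0.92 and 0.85). For Rbp4 they were Gm7901, 2610016A17Rik and Mipep (r = 0.91, 0.88 and 0.88), for Nampt Gabarapl1, Tinagl1 and Retsat (0.90, 0.90 and 0.89), and for Rarres2 Ric3, Cd59a and Syp (0.83, 0.82 and 0.81).

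Of 13 adipokine receptor genes tested, 4 rose with HFD in Cpa3+/+, where 3.44% of all genes did. In Cpa3Cre/+ 2 rose and 1 fell, beside 5.88% and 3.22% of all genes. None passed in KitW/Wv (limma), where 0.00583% of all genes did. The receptor list had a median diet difference of 0.18, 0.03 and 0.06 in the 3 genotypes. Aplnr, the apelin receptor gene, had the largest diet difference of the list in Cpa3+/+ and in Cpa3Cre/+, while its ligand gene Apln was near background. Aplnr read 4.95, 4.75 and 4.99 in Cpa3+/+ on LFD and 8.09 and 8.46 on HFD. In Cpa3Cre/+ it read 5.99, 5.91 and 5.56 against 7.75, 7.59 and 7.43. In KitW/Wv the values were 7.14, 6.10 and 5.97 on LFD and 6.04, 6.54 and 5.79 on HFD. The diets were far apart in the first 2 genotypes and overlapped in KitW/Wv. The rise was 3.38 in Cpa3+/+ (10.4-fold, SE 0.30, limma adjusted p = 2.37e-05) and 1.78 in Cpa3Cre/+ (3.43-fold, SE 0.27, adjusted p = 0.000613), and the difference in KitW/Wv was -0.28 (SE 0.27, adjusted p = 1). The diet effect in KitW/Wv was lower than that in Cpa3+/+ (interaction -3.66 on the log2 scale, SE 0.41, limma adjusted p = 0.00083) and than that in Cpa3Cre/+ (interaction -2.06, SE 0.38, adjusted p = 0.0086). The interaction with Cpa3+/+ holds a difference on LFD as well as one on HFD. On LFD every KitW/Wv array (5.97 to 7.14) was above every Cpa3+/+ array (4.75 to 4.99), though no receptor gene passed in that comparison. On HFD Aplnr was lower in KitW/Wv than in Cpa3+/+ (-2.15, SE 0.30, limma adjusted p = 0.00183) and than in Cpa3Cre/+ (-1.47, SE 0.27, adjusted p = 0.00385). Without background correction the sizes were smaller, for example 1.82 for the diet in Cpa3+/+ and 1.00 in Cpa3Cre/+, and all these calls held. Endothelial markers were at 0.33 to 0.35 in Cpa3+/+ on HFD and -0.11 to -0.05 in Cpa3Cre/+ on HFD, beside -0.45 to 0.06 and -0.33 to -0.02 on LFD. In KitW/Wv they were at -0.22 to 0.50 on HFD and -0.26 to 0.46 on LFD. Their part in the Aplnr values was not tested.

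Ccrl2, which encodes a chemerin-binding receptor, read 5.86, 5.62 and 5.52 in Cpa3+/+ on LFD and 7.07 and 7.03 on HFD. In Cpa3Cre/+ it read 5.45, 5.41 and 5.75 on LFD and 6.89, 7.01 and 6.85 on HFD. In KitW/Wv it read 5.86, 5.54 and 5.99 on LFD and 6.24, 6.43 and 6.33 on HFD, with no overlap in any genotype. The rise was 1.38 in both Cpa3+/+ (SE 0.17, limma adjusted p = 0.000284) and Cpa3Cre/+ (SE 0.15, adjusted p = 3.49e-05). Without background correction it was 0.69 and 0.66 and passed in both, and fitting only the 2 diet groups of Cpa3+/+ ended that call (adjusted p = 0.0506). The KitW/Wv difference of 0.54 (SE 0.15) did not pass (adjusted p = 1), and the interactions of -0.85 and -0.84 had limma adjusted p-values of 0.115 against Cpa3+/+ and 0.054 against Cpa3Cre/+. On HFD Ccrl2 was lower in KitW/Wv than in Cpa3+/+ (-0.71, limma adjusted p = 0.0413) and in Cpa3Cre/+ (-0.58, adjusted p = 0.0285), calls that were lost on leaving out any 1 array of the first pair and any of 5 of the 6 arrays of the second. Adipor2 fell by 0.67 in Cpa3Cre/+ (SE 0.19, limma adjusted p = 0.0422) and had differences of -0.61 in Cpa3+/+ (adjusted p = 0.138) and -0.03 in KitW/Wv, while Adipor1 lay between 11.40 and 11.84 on all 17 arrays. The Adipor2 call was lost in 8 of 13 other settings, among them median scaling, the fit of the 2 groups alone and leaving out any of 5 of the 6 arrays. Gpr1, which encodes another chemerin receptor, rose by 1.22 in Cpa3+/+ (limma adjusted p = 0.0456), and Cdh13, whose product T-cadherin binds adiponectin, by 0.99 (adjusted p = 0.0351). Each of these calls was lost in 7 of 12 other settings, and leaving out either HFD array ended both (adjusted p 0.171 to 0.251). In Cpa3Cre/+ the Gpr1 difference of 0.76 did not pass (adjusted p = 0.136), but it passed in 3 of 13 other settings (lowest adjusted p = 0.0222, under median scaling). The leptin receptor gene Lepr and the chemerin receptor gene Cmklr1 were each detected on 3 of 17 arrays and stayed within 4.15 to 5.16 and 4.12 to 4.71. Lrp2, an uptake receptor gene, read 10.07 on Cpa3+/+ LFD array 3, the array with the highest epididymis and testis markers, and 4.72 to 7.06 on the others.

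**Figure D4:**
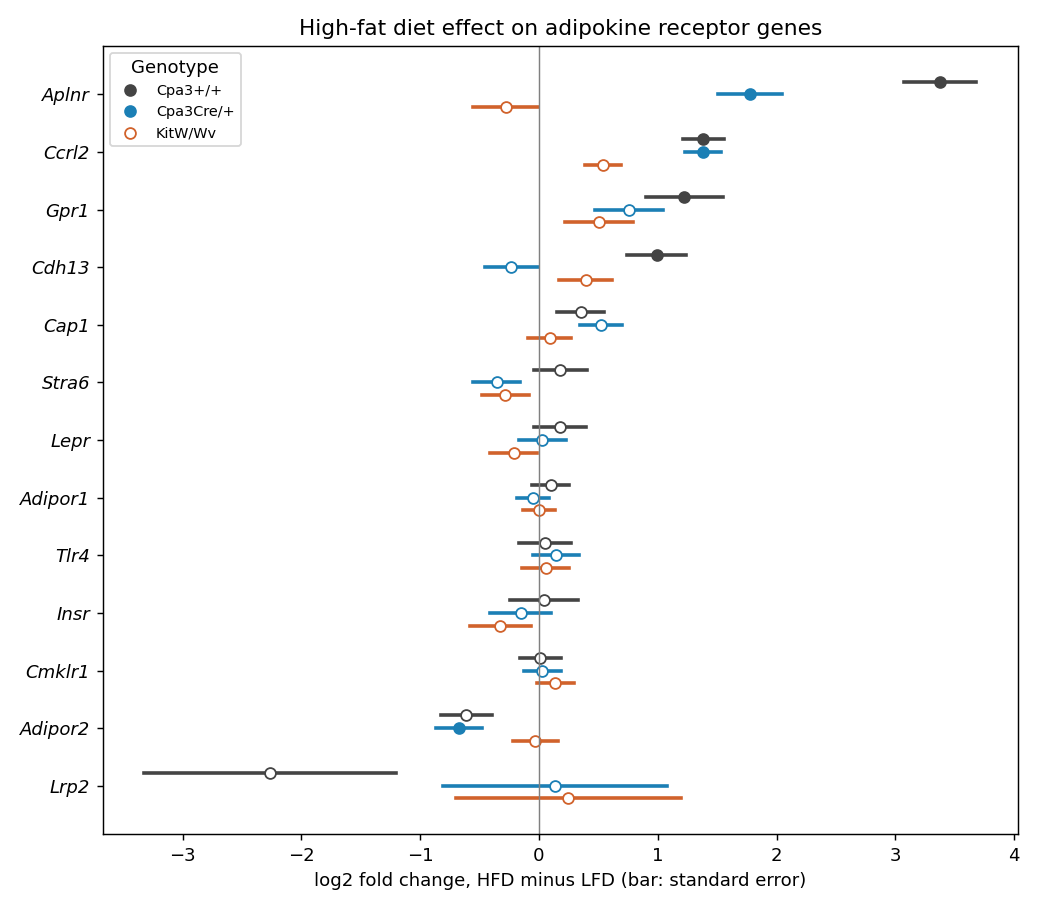
Log2 fold change of HFD against LFD for the 13 tested adipokine receptor genes in each genotype; bars are standard errors from the model and filled points passed the threshold. Aplnr and Ccrl2 passed in Cpa3+/+ and Cpa3Cre/+ and no receptor gene passed in KitW/Wv.

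Genes that act downstream of the receptors, in secretion and in transcription were counted by list, beside 4.65%, 9.1% and 0.00583% of all genes that passed with diet in Cpa3+/+, Cpa3Cre/+ and KitW/Wv. Of 8 receptor signalling genes tested, 1 fell in Cpa3+/+ and in Cpa3Cre/+ and none passed in KitW/Wv. It was Prkaa1, which encodes a catalytic subunit of AMP-activated kinase, a kinase downstream of adiponectin (-0.99, limma adjusted p = 0.0425, and -0.84, adjusted p = 0.034). Of 12 genes for secretion and processing, 2 fell in Cpa3Cre/+ and none passed in the other genotypes. They were Gstk1 (-0.84, limma adjusted p = 0.0324), whose product DsbA-L promotes adiponectin assembly, and the vesicle protein gene Vamp2 (-0.69, adjusted p = 0.0314). Of 12 transcriptional regulators, among them Pparg and Cebpa, 1 passed for diet, Tcf7l2 in Cpa3Cre/+ (-0.95, limma adjusted p = 0.0234). Each of these 4 genes lost its calls on leaving out 1 of several single arrays. Without background correction the Prkaa1 differences were -0.37 and -0.31 and did not pass (adjusted p = 0.0785 and 0.0659). For KitW/Wv against Cpa3Cre/+ on HFD, 7.85% of all genes passed (2.99% higher and 4.86% lower). Of the 12 secretion and processing genes, 2 were higher there, Gstk1 (0.93, limma adjusted p = 0.0219) and the neutrophil elastase gene Elane (1.32, adjusted p = 0.0331). The product of Elane can activate chemerin. Neutrophil markers, a list that includes Elane, were at 0.33 to 0.37 in KitW/Wv and -0.47 to 0.13 in Cpa3Cre/+ on HFD, and their part was not tested. Of 9 genes of NAD synthesis beside Nampt, 1 passed anywhere. It was Qprt, lower in KitW/Wv than in Cpa3Cre/+ on HFD (-1.42, limma adjusted p = 0.0262), where 4.86% of all genes passed as lower. The calls for Gstk1 and Qprt were also lost without some single arrays. That for Elane was lost on leaving out any single array of either group (limma adjusted p = 0.06 to 0.109). Without background correction Elane had 0.44 and did not pass (adjusted p = 0.0684), and Qprt had -0.50 and passed (adjusted p = 0.0332).

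Of 31 other secreted adipose factors tested, 6 rose and 1 fell with HFD in Cpa3+/+, 8 rose and 2 fell in Cpa3Cre/+, and none passed in KitW/Wv. Of all genes, 3.44% rose and 1.21% fell in Cpa3+/+, 5.88% and 3.22% in Cpa3Cre/+, and 0.00583% passed in KitW/Wv. The median diet difference of this list was 0.24, 0.53 and 0.06, beside -0.02, -0.02 and 0.00 for all genes. Saa3, an acute-phase serum amyloid gene, rose by 3.66 in Cpa3+/+ (SE 0.85, limma adjusted p = 0.0234) and by 3.71 in Cpa3Cre/+ (SE 0.76, adjusted p = 0.00626). Npy, the neuropeptide Y gene, rose by 2.33 (SE 0.31, limma adjusted p = 0.000534) and 2.90 (SE 0.27, adjusted p = 9.65e-06), from LFD levels at which it was detected on 1 of 3 arrays in each genotype. Without background correction its rises were 0.89 and 1.29, and both calls held. Agt, which encodes the precursor of angiotensin, fell by 2.91 in Cpa3+/+ (SE 0.34, limma adjusted p = 0.000206) and fell by 2.82 in Cpa3Cre/+ (SE 0.31, adjusted p = 3.21e-05). Serpinf1, the gene of pigment epithelium-derived factor, rose by 1.33 in Cpa3+/+ (limma adjusted p = 0.00113), although its second probe showed 0.11. Sfrp5, which encodes a secreted Wnt antagonist, rose by 2.61 in Cpa3Cre/+ (limma adjusted p = 0.0386), a call lost in 8 of 13 other settings. Leaving out single arrays moved it between 1.98 (without LFD array 2) and 3.69 (without LFD array 1), and without background correction it was 1.91 and passed. The Saa3 call in Cpa3+/+ was lost without LFD array 1, LFD array 3 or either HFD array and with only the 2 groups fitted (adjusted p = 0.0695). Without background correction the Saa3 rises were 3.07 and 3.08, and both passed. Macrophage and stromal progenitor markers moved with these rises, and their part was not tested.

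On HFD, KitW/Wv differed from Cpa3+/+ in 3 of these 31 factors and from Cpa3Cre/+ in 7, beside 2.36% and 7.85% of all genes. In the same comparisons, 6 and 9 of 17 macrophage markers and 1 and 4 of 9 stromal progenitor markers were lower in KitW/Wv, and 2 and 3 of 5 B cell markers were higher. Their part was not tested. Npy was lower in KitW/Wv, by -1.90 against Cpa3+/+ (SE 0.31, limma adjusted p = 0.00515) and -2.54 against Cpa3Cre/+ (SE 0.27, adjusted p = 7.83e-05). Agt was higher, by 2.01 (SE 0.34, limma adjusted p = 0.00637) and 2.20 (SE 0.31, adjusted p = 0.000504). Serpinf1 was lower than in Cpa3+/+ (-0.94, limma adjusted p = 0.0194). Its size was as small as -0.43 in a setting that left out no array, and its second probe showed little rise with diet, as given above. Nrg4, a neuregulin gene (1.88, limma adjusted p = 0.0207), and Retnlg, a resistin-like gene that is also a neutrophil marker (1.87, adjusted p = 0.0143), were higher in KitW/Wv than in Cpa3Cre/+. Without background correction Retnlg had 0.94 and the Npy differences were -0.76 and -1.15, and these calls held. The calls for Serpinf1, Nrg4 and Retnlg were lost without single arrays of either group, and those against Cpa3+/+ without HFD array 1 for Npy (adjusted p = 0.117) and without HFD array 2 for Agt (adjusted p = 0.119).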

How the data were processed

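Total RNA of 17 epididymal fat samples was measured on Illumina bead arrays of 46237 probes, processed with GenomeStudio per the submitters' processing notes (version not given in the sources used here). For each probe and array the authors deposited a non-normalized linear intensity and, per the file headers, a detection p-value. The steps behind the authors' deposited normalized intensity are also not given in those sources, and it served as an alternative. Background was corrected with the detection p-values and arrays were quantile normalized to log2 values (neqc, offset 16). Within an array these p-values fell with intensity, though not in strict order, so the inferred background is approximate. A probe was kept where 2 or more arrays had a detection p under 0.05, and a gene was represented by its brightest kept probe (highest mean). Symbols came from the platform annotation: 35784 probes had 1 symbol, and 10453 counted as without one, which would include any probe with several.

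A model with 1 mean per group was fitted to 17 arrays and 17166 genes (limma 3.58.1 in R 4.3.3, with residual degrees of freedom of 11 and prior of 3.34) and gave 9 pairwise comparisons and 3 interactions, with Benjamini-Hochberg adjustment and a threshold of 0.05. It was tested on simulated data. The adipokines and all gene lists were chosen with earlier results of these data known. Named were all 8 adipokines, up to 4 called members of each list per comparison by size, receptors, and the 3 genes most like each adipokine. Alternatives were the authors' normalized values, median scaling, no background correction, no detection filter, the mean of all detected probes, a replicate block, only the groups compared, each array left out and, added after seeing the data, 2 arrays that stand apart left out together. Same-numbered samples deviated together in all 3 pairs only for KitW/Wv against Cpa3+/+ on LFD (r = 0.14, 0.29 and 0.14), where no adipokine passed with or without the block. Comparisons with only 2 such pairs are described with the processing results below, where the block ended the Lep call in Cpa3+/+. Promoter windows and gene positions are RefSeq on GRCm38.p6. Figures used Python 3.11.15 and matplotlib 3.10.9.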

Additional observations from a re-analysis of the deposited data

Results flagged for a closer look

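The diet effect differed between genotypes, by a test of the interaction, for 5 of the genes named here, none of them an adipokine of the 8. Listed genes other than receptors were named because they passed, so this count is no share of a list. In the interactions of KitW/Wv with Cpa3+/+ and with Cpa3Cre/+, 0.885% and 2.54% of all genes passed. Of 13 receptor genes 1 was lower in each. Of 31 other secreted factors, 1 was higher and 1 lower in the first, and 1 higher and 3 lower in the second. For the apelin receptor gene Aplnr the effect in KitW/Wv minus that in Cpa3+/+ was -3.66 (SE 0.41, limma adjusted p = 0.00083), and minus that in Cpa3Cre/+ it was -2.06 (SE 0.38, adjusted p = 0.0086). Npy had -2.31 (SE 0.41, limma adjusted p = 0.0179) and -2.88 (SE 0.39, adjusted p = 0.00108) in the same order, and Agt had 2.90 (SE 0.46, limma adjusted p = 0.00867) and 2.81 (SE 0.43, adjusted p = 0.00263). Against Cpa3Cre/+ alone, Serpinf1 had -1.09 (SE 0.24, limma adjusted p = 0.0272) and the progranulin gene Grn had -1.34 (SE 0.26, adjusted p = 0.011). Both interactions of Aplnr passed in every setting run (18 and 19). Against Cpa3+/+, the call for Npy was lost without HFD array 1 (adjusted p = 0.137) or 2 (0.0571) of Cpa3+/+ and with only the groups compared (0.0546), and that for Agt without HFD array 2 of Cpa3+/+ (0.0713). The second Serpinf1 probe gave -0.15 (limma adjusted p = 0.924), and with the mean of its probes the value was -0.62 (adjusted p = 0.175). The Serpinf1 call was lost in 8 of 19 other settings. Leaving out single arrays gave it limma adjusted p-values of 0.035 to 0.0812. Npy was detected on 1 of 3 LFD arrays in each of Cpa3+/+ and Cpa3Cre/+ and on 2 of 3 arrays of each diet in KitW/Wv, so its sizes depend on the background: without background correction they were -0.88 and -1.28, and both passed. In the same 2 interactions 5 of 17 (median -0.99) and 9 of 17 (median -1.40) macrophage markers were lower, and stromal progenitor markers had medians of -1.09 and -0.78 with 0 and 1 of 9 past the threshold. Their part was not tested. These comparisons share the KitW/Wv arrays and are not independent. The Aplnr interaction with Cpa3+/+ also holds the LFD levels, which were higher on every KitW/Wv array than on every Cpa3+/+ array.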

How the results depend on the processing

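The count of adipokines past the threshold for the diet in Cpa3+/+ (1) became 2 with the authors' normalized values, 0 under the replicate block, 0 with only the groups compared and 0 to 1 on leaving out single arrays. Fitting only the groups compared gave 1 for the diet in Cpa3Cre/+ (Retn) and 1 for KitW/Wv against Cpa3Cre/+ on HFD (Lep). The interaction of KitW/Wv and Cpa3Cre/+ gave 0 to 1 without single arrays. Over all genes, the calls for the diet in Cpa3+/+ went from 798 to 127 and in Cpa3Cre/+ from 1562 to 767 with only the groups compared. Without HFD array 1 or 2 of Cpa3+/+ the 798 fell to 229 or 243, the 405 for KitW/Wv against Cpa3+/+ on HFD to 63 or 81, and the 152 of the interaction to 27 or 34. That 152 was 89 under median scaling and 96 under the replicate block. Without Cpa3Cre/+ HFD array 2, the 1562 fell to 946 and the 1348 for KitW/Wv against Cpa3Cre/+ on HFD to 682. The 6 calls for Cpa3Cre/+ against Cpa3+/+ on LFD became 2 with only those groups, and the diet in KitW/Wv had 0 to 2. Median scaling moved the median of all genes by 0.11 for the diet in Cpa3Cre/+ and turned its 1010 higher and 552 lower genes into 1554 and 239, and the 513 and 835 of KitW/Wv against Cpa3Cre/+ on HFD into 263 and 1338. Under the replicate block, Lep in Cpa3+/+ had 1.72 (limma adjusted p = 0.0552), and no other adipokine call was lost. The same-numbered Cpa3+/+ samples of the 2 diets, only 2 pairs, had correlated deviations (r = 0.24 and 0.22), as had KitW/Wv and Cpa3+/+ on HFD (0.36 and 0.22), and the labels give no shared source for the numbers.

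Some uncalled values near 0 changed sign. Under median scaling these were Lep for Cpa3Cre/+ against Cpa3+/+ on LFD (0.040), Adipoq (0.011), Rbp4 (0.011) and Adipor2 (0.058) for the diet in KitW/Wv, and Cdh13 for the diet in Cpa3Cre/+ (0.035). The mean of all probes gave Rarres2 -0.048 for the diet in Cpa3Cre/+. Without both arrays that stand apart, Lep gave 0.26 for Cpa3Cre/+ against Cpa3+/+ on LFD and -0.14 for the interaction of Cpa3Cre/+ and Cpa3+/+. On leaving out single arrays, the lowest and highest values were -0.13 and 0.41 for Lep with diet in KitW/Wv, -0.52 and 0.35 for Lep in Cpa3Cre/+ against Cpa3+/+ on LFD, and -0.24 and 0.64 for its interaction. They were -0.31 and 0.17 for Retn in KitW/Wv against Cpa3+/+ on HFD, -0.21 and 0.14 against Cpa3Cre/+ on LFD, -0.39 and 0.14 for Rbp4, -0.50 and 0.087 for Aplnr and -0.16 and 0.057 for Adipor2 with diet in KitW/Wv. The cause was not tested. Probes near background, as for Retn, Aplnr, Ccrl2, Elane and Npy, have folds that depend on the background correction.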
